A study of Arabidopsis thaliana with 6 samples.

Results

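The genes described here encode proteins of secretion and vesicle sorting in Arabidopsis thaliana. They were chosen by a rule on symbols, with earlier results of these data known. The rule took probe sets with 1 annotated gene whose current symbol begins with a listed stem. The stems name vacuolar protein sorting (VPS) proteins, PRA1 proteins, SNAREs, SEC proteins, exocyst subunits, sorting nexins, vacuolar sorting receptors, ESCRT proteins and RAB GTPases. The rule found 29 genes among 13286 named genes, with 1 probe set each: 10 VPS genes, 9 PRA1 genes, 9 SEC genes and 1 syntaxin. No named gene (0) carried an EXO70, VAMP, VTI, SNX, VSR, CHMP or RAB symbol, so those families were not analysed here. Transcript levels were measured on 6 Affymetrix arrays, 3 of transgenic seedlings that overexpressed a cDNA of the rice gene OsTOP6A1, which encodes a subunit A of topoisomerase 6, and 3 of wild type seedlings. All were whole seedlings of the Columbia ecotype, grown for 10 days in continuous light on agar medium with sucrose. The labels call the arrays of a genotype biological replicates. They do not give the promoter that drives the transgene, the number of transgenic lines or how many plants were pooled.

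Secreted and membrane proteins travel between the endoplasmic reticulum, Golgi, plasma membrane and vacuole in vesicles that bud from one membrane and fuse with another. RAB GTPases mark each membrane, tethering complexes such as the exocyst hold a vesicle at its target, and SNAREs with their SEC1 family partners fuse it. ESCRT complexes act at the endosome, where they sort ubiquitinated membrane proteins into the inner vesicles of multivesicular bodies, which deliver them to the vacuole. In plants these routes carry cell wall material, receptors and auxin carriers.

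Array medians lay between 37.5 and 38.6 intensity units in transgenic and between 38.0 and 39.3 in wild type seedlings, and the small number of arrays sets the precision of every value. The summed intensity of 4 root markers was 3845 to 4375 in transgenic and 3790 to 4329 in wild type seedlings. The sum of 3 shoot markers was 10474 to 11458 in transgenic and 9475 to 11247 in wild type seedlings. The 2 flower and 2 seed markers had no named probe set. The ratio of the 3′ to the 5′ actin control probe set, a reading of RNA integrity, was 2.51, 2.53 and 2.50 in transgenic and 2.11, 2.32 and 2.17 in wild type seedlings, without overlap, whereas the same ratios for GAPDH and ubiquitin overlapped. The part of this difference in the results below was not tested. Whole seedlings mix many cell types, so fewer cells of a type and less RNA per cell cannot be told apart.

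For most of the trafficking genes no difference between transgenic and wild type seedlings passed the test. Of the 29 genes, 2 rose and 5 fell at an adjusted p of 0.05 in limma, and 22 did not pass. The 2 rises were VPS2.2 and PRA1.A1. The 5 falls were the ESCRT genes VPS20.1, VPS24.1 and VPS46.2 and the RAB acceptor genes PRA1.F1 and PRA1.H. All calls lay in these 2 families, and none (0) of the 11 exocyst, SNARE, SEC1 family, SEC20 and VPS9 genes passed in limma. Of these 11, 3 had an unadjusted p under 0.05, beside 30.5% of all probe sets. Whether the families differ in their share of calls was not tested.

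These 7 calls were 24.1% of the genes, beside 16.5% of all 22746 probe sets tested. The 5 falls were 17.2% of the genes, beside 8.31% of all probe sets, and the 2 rises were 6.90%, beside 8.18%. The 29 genes were brighter than the background, with a median intensity of 83.0 beside 38.8 over all probe sets. When probe sets with a mean intensity of 16 or less were removed, 4061 of 14741 passed, 2223 of them lower. Of the 24 genes kept in that fit, 7 passed, 5 of them lower. The share of these genes that passed thus lay near that of all probe sets kept, while the share that fell lay above it. The part of brightness in these shares was not tested. The median log2 fold change (transgenic minus wild type, on the log2(intensity + 16) scale) was -0.12 over the 29 genes and -0.02 over all probe sets. It was negative for 18 genes, or 62.1%, beside 54.4% of all probe sets. The arrays of both genotypes did not overlap for 11 genes, or 37.9%, beside 34.9% of all probe sets, so that this share lay near the background. On the log2(intensity + 16) scale, 1 gene, VPS2.2, was called with a change of at least 2-fold. Over all probe sets, 1.17% rose this far and 0.479% fell this far. Without transgenic replicate 3 the 5 falls were 2, and without transgenic replicate 2, wild type replicate 2 or wild type replicate 3 they were 3, while the 2 rises remained 2 without each array.

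**Figure D1:**
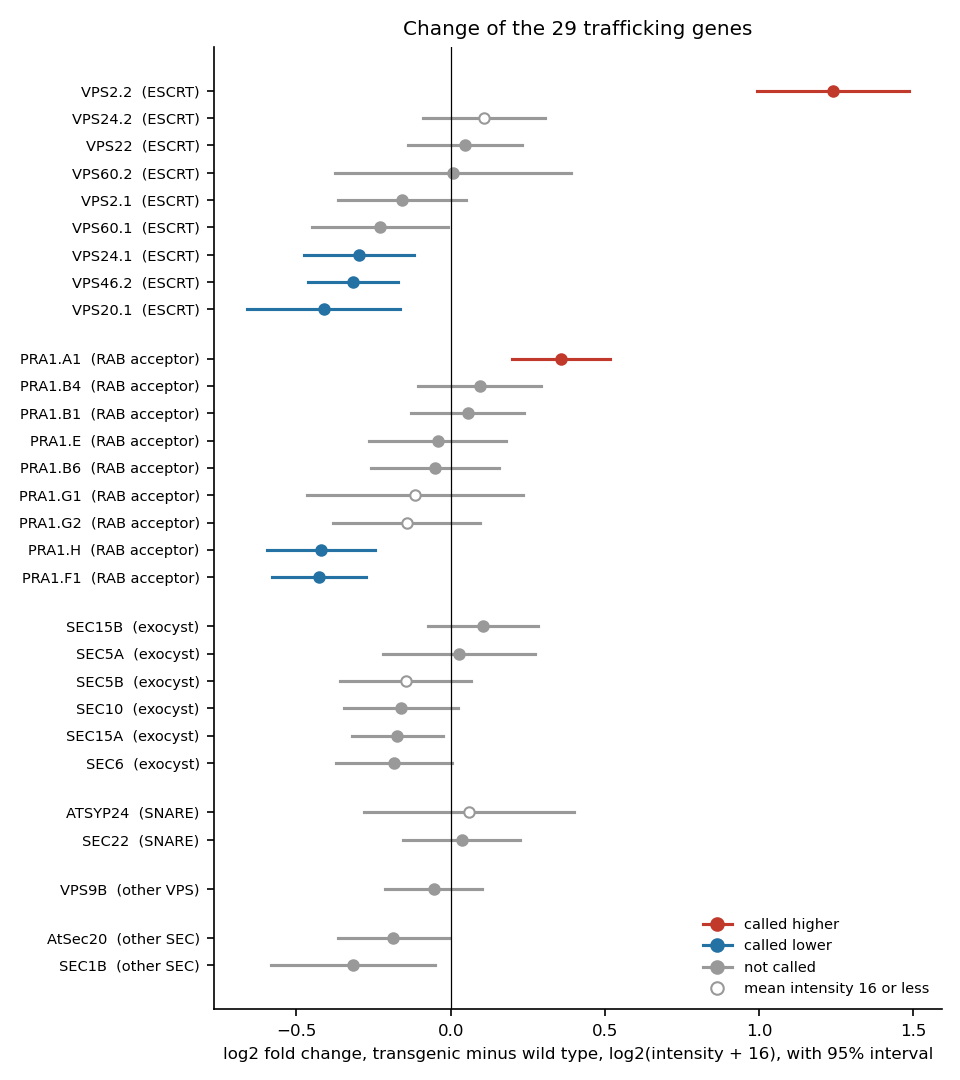
Log2 fold change of each of the 29 genes (horizontal axis, transgenic minus wild type, log2(intensity + 16)), grouped by role, with lines for the 95% interval of the limma fit. VPS2.2 stands apart at 1.24, while the other genes lie between -0.43 and 0.36. Open circles mark the 5 genes with a mean intensity of 16 or less.

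The ESCRT genes held the widest range of changes. ESCRT-III proteins assemble into filaments that constrict and cut the neck of the budding inner vesicle, and 8 of the 9 ESCRT genes measured encode ESCRT-III or related proteins. Of the 9, 1 rose, 3 fell and 5 did not pass, so that 44.4% were called, beside 16.5% of all probe sets (8.18% higher and 8.31% lower). The median intensity of the 9 genes was 91.5, beside 38.8 over all probe sets. Without probe sets of a mean intensity of 16 or less, 4061 of 14741 probe sets passed, a larger share of the background.

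VPS2.2 (AT5G44560, chromosome 5) encodes a form of VPS2, a subunit that in yeast completes the ESCRT-III filament and recruits the VPS4 ATPase for its disassembly. Its intensity was 98.0, 93.2 and 101.3 in transgenic seedlings, against 25.9, 39.6 and 31.7 in wild type seedlings. The lowest transgenic array lay far above the highest wild type array. The means were 97.5 ± 4.07 in transgenic and 32.4 ± 6.88 in wild type seedlings (SD, n = 3 each), a ratio of 3.01. The log2 fold change was 1.24 (limma adjusted p = 0.000341, SE 0.11), and 232 of the 22746 probe sets had a larger change in either direction. The call held under all 14 alternative fits, with log2 fold changes of 0.75 to 1.58. The low value belongs to a pseudocount of 64, which damps dim probe sets more.

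VPS2.1 (AT2G06530), the other VPS2 gene measured, had intensities of 234.5, 202.9 and 194.8 in transgenic and 254.7, 222.6 and 231.9 in wild type seedlings. Its arrays overlapped between genotypes, and the log2 change of -0.16 missed the threshold (limma adjusted p = 0.288, 95% interval -0.36 to 0.05). The change of VPS2.2 minus that of VPS2.1 was 1.40 on the log2 scale (SE 0.19). The genotypes did not overlap in this within-array difference, and the two-sided exact permutation test gave p = 0.1, the smallest that 3 arrays against 3 allow.

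VPS20.1 (AT5G63880), VPS24.1 (AT5G22950) and VPS46.2 (AT1G73030) fell. VPS20 starts the ESCRT-III filament and VPS24 caps it in yeast. VPS46.2, also named CHMP1A, belongs to an ESCRT-related family that sorts auxin carriers for degradation in Arabidopsis.

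VPS46.2 had intensities of 217.9, 224.0 and 208.1 in transgenic seedlings, against 277.2, 277.5 and 266.2 in wild type seedlings. All transgenic arrays lay below all wild type arrays, and the replicates of each genotype lay close together. This was a change of -0.32 on the log2 scale (limma adjusted p = 0.0146, SE 0.06). It did not pass without transgenic replicate 3 (adjusted p = 0.058), without wild type replicate 2 (adjusted p = 0.0513) or with a pseudocount of 1 (adjusted p = 0.0522).

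VPS24.1 had intensities of 192.6, 164.9 and 172.9 in transgenic and 230.0, 216.7 and 215.0 in wild type seedlings, again without overlap. The change was -0.30 on the log2 scale (limma adjusted p = 0.0361, SE 0.08). The call held without transgenic replicate 1 and ended without each other array, namely transgenic replicates 2 and 3 (adjusted p = 0.114 and 0.109) and wild type replicates 1, 2 and 3 (adjusted p = 0.084, 0.0839 and 0.0809). With a pseudocount of 1 the adjusted p was 0.0948.

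VPS20.1 had intensities of 77.3, 73.3 and 77.0 in transgenic and 128.0, 93.8 and 99.4 in wild type seedlings. Wild type replicate 1 was the highest of the 6 values, and all wild type arrays lay above all transgenic arrays. They differed by -0.41 on the log2 scale (limma adjusted p = 0.0372, SE 0.11). The call ended without transgenic replicate 1, 2 or 3 (adjusted p = 0.0832, 0.113 and 0.0974), without wild type replicate 3 (adjusted p = 0.0714) and with a pseudocount of 1 (adjusted p = 0.0924). Each of the 3 ESCRT falls thus lost its call without certain single arrays, although its direction was the same in all 14 alternative fits. Without single arrays the log2 changes were -0.49 to -0.29 for VPS20.1, -0.36 to -0.25 for VPS24.1 and -0.34 to -0.29 for VPS46.2. VPS20.1 passed without its highest array, wild type replicate 1 (limma adjusted p = 0.0365). Calls over all probe sets also fell without each array, from 3751 to between 2181 and 3433. The part of the smaller number of arrays in the lost calls was not tested.

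The 4 remaining ESCRT genes did not pass. VPS60.1 (AT3G10640), of a family that in yeast regulates the VPS4 ATPase, had intensities of 74.8, 59.5 and 57.3 in transgenic and 79.2, 79.5 and 72.9 in wild type seedlings. Transgenic replicate 1 lay within the wild type range, and without it the log2 fold change of -0.23 became -0.32 and passed (limma adjusted p = 0.15 with all arrays and 0.0371 without it). Its relative VPS60.2 (AT5G04850) had the largest standard error of the 9 ESCRT genes (0.16), at 64.4, 71.4 and 102.6 in transgenic and 92.0, 64.2 and 78.9 in wild type seedlings, and its log2 fold change of 0.01 had a 95% interval of -0.38 to 0.39.

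VPS22 (AT4G27040), the ESCRT-II subunit that in yeast lies upstream of VPS20, had means of 108 ± 3.86 in transgenic and 105 ± 9.93 in wild type seedlings (SD, n = 3 each). The log2 change was 0.05 (95% interval -0.14 to 0.23). VPS24.2 (AT3G45000) had intensities of 0.2, 0.9 and 3.7 in transgenic and 0.4, 0.2 and 0.2 in wild type seedlings, too dim on every array for a difference to be read. The changes of VPS24.1 and VPS24.2 differed by -0.41 (SE 0.13, exact permutation p = 0.1), and this value rests on the dim VPS24.2.

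**Figure D2:**
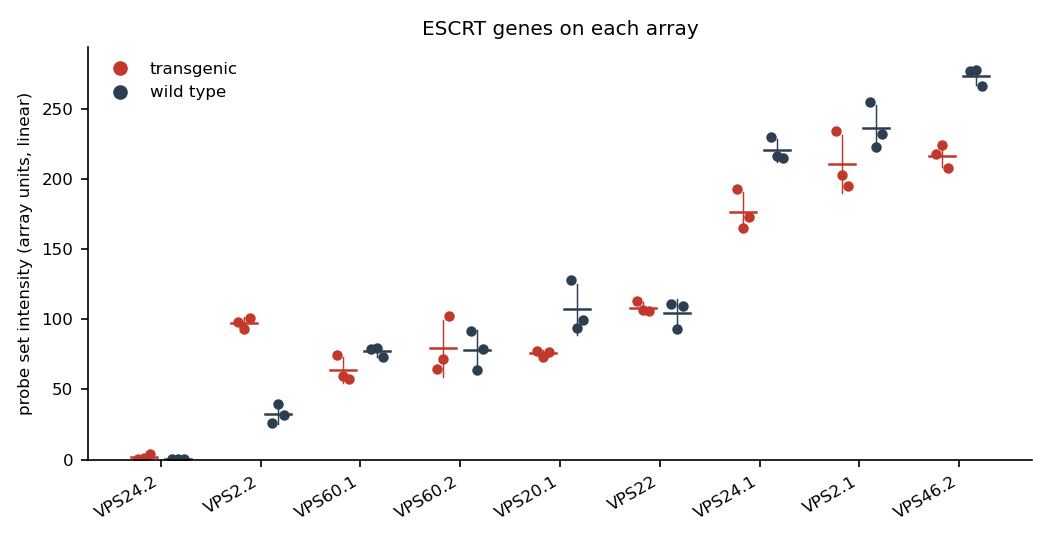
Probe set intensity (vertical axis, linear array units) of the 9 ESCRT genes, with a point for each array, transgenic left and wild type right, a bar at the mean and a vertical line for the SD of 3 arrays. VPS2.2 is higher in all transgenic arrays, and VPS20.1, VPS24.1 and VPS46.2 are lower in all of them.

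PRA1 proteins are small membrane proteins that bind prenylated RAB GTPases and sit on the endoplasmic reticulum, Golgi and endosomes. Arabidopsis has many of them, and 9 were measured. Of these, 1 rose, 2 fell and 6 did not pass, so that 33.3% were called, beside 16.5% of all probe sets (8.18% higher and 8.31% lower). The median intensity of the 9 genes was 66.1, beside 38.8 over all probe sets. Without probe sets of a mean intensity of 16 or less, 4061 of 14741 probe sets passed, a larger share of the background. All 3 calls held under all 14 alternative fits.

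PRA1.F1 (AT1G17700, chromosome 1) had intensities of 29.3, 32.3 and 30.5 in transgenic seedlings, against 44.8, 45.9 and 49.7 in wild type seedlings. The genotypes did not overlap, and the ratio of the means was 0.656. On the log2 scale the change was -0.43 (limma adjusted p = 0.00527, SE 0.07), with adjusted p of up to 0.026 without single arrays.

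PRA1.H (AT4G27540, chromosome 4) had intensities of 26.1, 25.7 and 21.4 in transgenic and 37.4, 36.0 and 40.6 in wild type seedlings. All transgenic arrays were again lower, with a ratio of the means of 0.642. On the log2 scale the change was -0.42 (limma adjusted p = 0.00947, SE 0.08), and the adjusted p reached 0.0399 without single arrays.

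PRA1.A1 (AT5G02040, chromosome 5) moved the other way. Its intensities were 78.4, 74.3 and 75.8 in transgenic and 53.6, 60.7 and 53.6 in wild type seedlings, without overlap. The log2 fold change was 0.36 (limma adjusted p = 0.0124, SE 0.07), and the adjusted p came as high as 0.0492 without single arrays. The ratio of the means was 1.36.

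The 3 PRA1 genes of the B clade did not pass. PRA1.B1 (AT3G56110) had means of 226 ± 11.8 in transgenic and 217 ± 17.5 in wild type seedlings, and PRA1.B4 (AT2G38360) of 189 ± 11.9 in transgenic and 176 ± 16.8 in wild type seedlings (SD, n = 3 each). PRA1.B6 (AT5G07110) had means of 81.4 ± 4.54 in transgenic and 85.1 ± 10.2 in wild type seedlings. Their log2 fold changes were 0.05, 0.09 and -0.05, and the widest bounds of their 95% intervals were -0.26 and 0.29, so that a change as large as that of PRA1.F1 or PRA1.H lay outside them.

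PRA1.E (AT1G08770) also overlapped between genotypes, with means of 81.6 ± 8.37 in transgenic and 84.4 ± 9.07 in wild type seedlings (SD, n = 3 each) and a log2 fold change of -0.04. PRA1.G1 (AT1G55640) and PRA1.G2 (AT5G56230) were dim. PRA1.G1 had 2.4, 0.8 and 1.9 in transgenic and 8.8, 0.5 and 1.2 in wild type seedlings, where wild type replicate 1 stood apart. PRA1.G2 had 10.4, 10.0 and 6.1 in transgenic and 12.7, 8.4 and 13.1 in wild type seedlings. Neither passed, with limma adjusted p of 0.671 and 0.408.

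**Figure D3:**
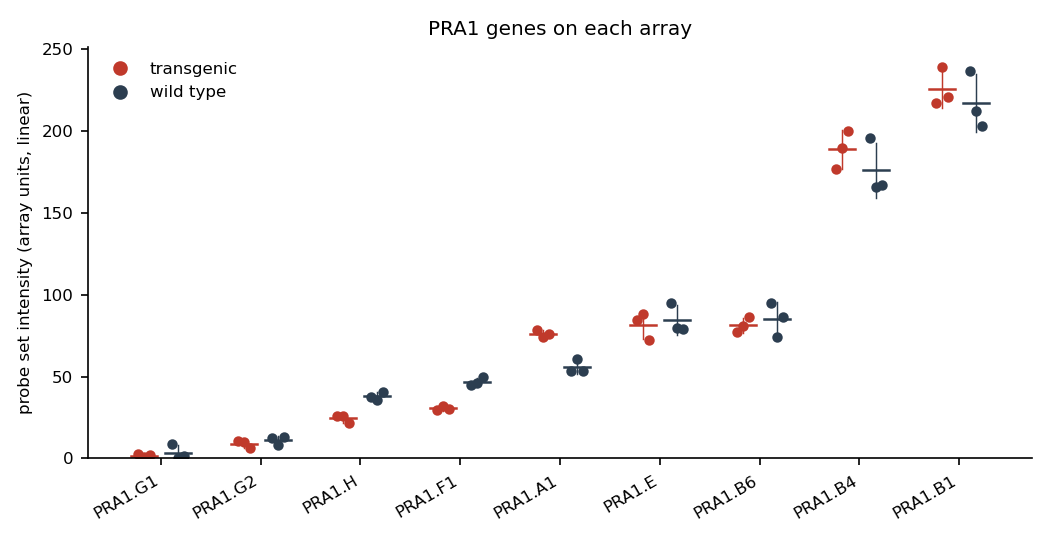
Probe set intensity (vertical axis, linear array units) of the 9 PRA1 genes, with a point for each array, transgenic left and wild type right, a bar at the mean and a vertical line for the SD of 3 arrays. PRA1.H and PRA1.F1 are lower and PRA1.A1 is higher in all transgenic arrays, and the other genes overlap.

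The exocyst tethers secretory vesicles to the plasma membrane before fusion, and 6 of its genes were among the 29. EXO84B, a further exocyst gene outside the symbol rule, is described with the other trafficking genes. None (0) of the 6 passed in limma, beside 16.5% of all probe sets, and 1 had an unadjusted p under 0.05, beside 30.5%. The changes were small, with log2 fold changes between -0.18 and 0.10 and a median of -0.15, beside -0.02 over all probe sets. The arrays of the genotypes did not overlap for 3 of the 6, each lower in transgenic seedlings, beside 34.9% of all probe sets without overlap in either direction.

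SEC15A (AT3G56640), of the subunit that binds an activated RAB GTPase in yeast, had intensities of 46.1, 49.0 and 43.7 in transgenic and 53.7, 54.7 and 54.1 in wild type seedlings. All transgenic arrays were lower, and the wild type arrays lay within 1 unit of each other. A change of -0.17 on the log2 scale did not pass (unadjusted p = 0.0276, limma adjusted p = 0.111). Its paralog SEC15B (AT4G02350) had intensities of 147.1, 145.7 and 135.5 in transgenic and 139.3, 120.1 and 136.2 in wild type seedlings, and its log2 change of 0.10 did not pass either (limma adjusted p = 0.415). The change of SEC15A minus that of SEC15B was -0.28 (SE 0.07, exact permutation p = 0.1, the smallest possible).

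SEC6 (AT1G71820), a core exocyst subunit, had intensities of 175.5, 167.4 and 149.9 in transgenic and 189.3, 199.7 and 176.8 in wild type seedlings. SEC10 (AT5G12370), another core subunit, had 110.3, 132.0 and 128.0 in transgenic and 139.7, 143.7 and 134.9 in wild type seedlings. In both genes the genotypes were separated by a narrow gap, and the log2 fold changes of -0.18 and -0.16 did not pass (limma adjusted p = 0.174 and 0.225). SEC5A (AT1G76850) had means of 146 ± 21.4 in transgenic and 142 ± 11.1 in wild type seedlings (SD, n = 3 each). Its paralog SEC5B (AT1G21170) was dim, with intensities of 13.7, 12.6 and 8.3 in transgenic and 13.0, 14.3 and 15.8 in wild type seedlings.

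The 2 genes grouped as SNAREs by their symbols did not differ beyond the spread of the arrays. AtSec20, which the symbols placed with other SEC genes, is described below. SEC22 (AT1G11890), a SNARE of traffic between the endoplasmic reticulum and Golgi, had intensities of 389.7, 360.4 and 346.3 in transgenic and 376.7, 366.7 and 325.3 in wild type seedlings. Its log2 change was 0.04 (95% interval -0.15 to 0.23). ATSYP24 (AT1G32270), of the syntaxin family, was dim, with 8.5, 4.6 and 2.0 in transgenic and 4.6, 0.9 and 7.1 in wild type seedlings. Both limma tests missed the threshold (0 of 2 passed, and 0 had an unadjusted p under 0.05, beside 30.5% of all probe sets).

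SEC1B (AT4G12120), of the SEC1 family that clasps SNAREs during fusion, had intensities of 21.0, 16.3 and 17.5 in transgenic and 20.2, 28.8 and 31.8 in wild type seedlings. Wild type replicate 1 lay inside the transgenic range. The log2 change was -0.32 and did not pass (limma, unadjusted p = 0.025, adjusted p = 0.104). This was the smallest p among the trafficking genes of the symbol rule that did not pass. Without wild type replicate 1 the log2 change was -0.44 with a limma adjusted p of 0.0213.

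AtSec20 (AT3G24315), whose yeast relative is a SNARE for retrieval to the endoplasmic reticulum, had intensities of 104.4, 124.0 and 112.4 in transgenic and 128.7, 127.6 and 137.2 in wild type seedlings. The genotypes did not overlap, but the log2 change of -0.19 missed the threshold (unadjusted p = 0.0444, limma adjusted p = 0.152). VPS9B (AT5G09320), a relative of the exchange factor VPS9A that activates RAB GTPases of endosomes, had means of 35.0 ± 2.86 in transgenic and 36.9 ± 0.85 in wild type seedlings (SD, n = 3 each). Its log2 fold change was -0.06 (95% interval -0.21 to 0.10).

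Gene families can hide changes of single copies, so the changes of 9 pairs of genes with the same stem were compared within each array. In 4 of the 9 pairs the genotypes did not overlap: VPS2.2 and VPS2.1, VPS24.1 and VPS24.2, SEC15A and SEC15B, and PRA1.B4 and PRA1.B6. Each had an exact permutation p of 0.1 and a value of 0.225 after adjustment over the 9 pairs, a design that cannot reach the threshold. Among these, the difference of 1.40 between VPS2.2 and VPS2.1 was beside differences of -0.41, -0.28 and 0.14 on the log2 scale. The pairs were chosen with the values of the genes known. The pairs of PRA1 genes of the B clade share genes, and VPS24.2 was dim. For single probe sets, the genotypes did not overlap in 34.9%.

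**Figure D4:**
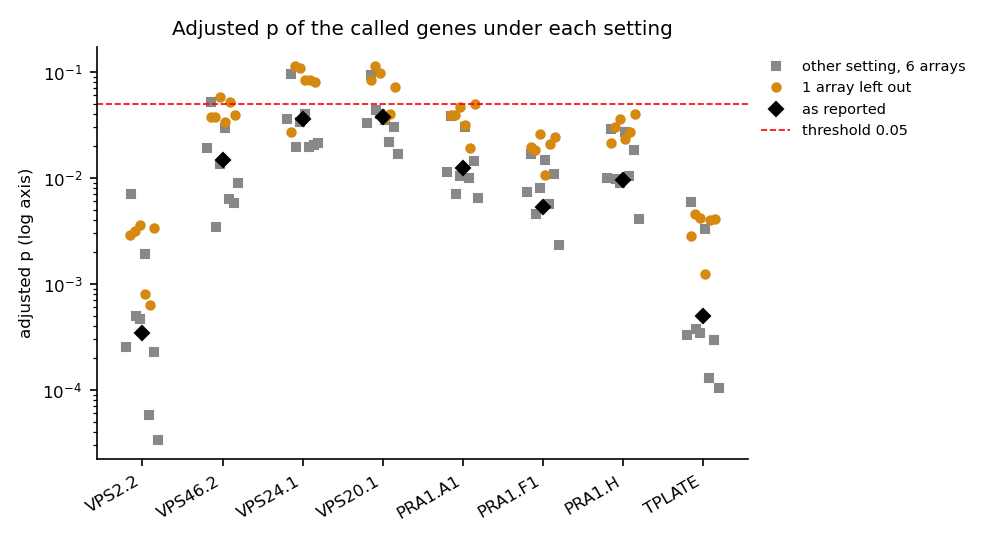
Adjusted p (vertical axis, log scale) of the 7 called genes and of TPLATE as reported (diamonds), under other settings with 6 arrays (squares) and with each array left out (circles), with the threshold of 0.05 as a dashed line. VPS2.2, the 3 PRA1 genes and TPLATE stay below the line throughout, and VPS46.2, VPS24.1 and VPS20.1 cross it.

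Other parts of the trafficking machinery were represented by 15 named genes for clathrin-mediated uptake, dynamins, ARF-like GTPases, tethers, SNAREs, a SEC1 family protein and carriers. Of these 1 rose, 0 fell and 14 did not pass in limma, so that 6.67% were called, beside 16.5% of all probe sets. An unadjusted p under 0.05 was met by 3 of the 15, beside 30.5% of all probe sets. The median log2 fold change was 0.03, beside -0.02 over all probe sets.

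The rise was TPLATE (AT3G01780), which encodes a subunit of a plant adaptor complex that drives clathrin-mediated endocytosis at the plasma membrane and cell plate. Its intensities were 115.4, 123.3 and 116.5 in transgenic seedlings, against 69.4, 63.6 and 62.1 in wild type seedlings. All transgenic arrays were far above all wild type arrays, with a ratio of the means of 1.82. The log2 change was 0.73 (limma adjusted p = 0.000496, SE 0.07), and the call held under all 14 alternative fits.

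EXO84B (AT5G49830), a further exocyst subunit, had intensities of 156.0, 143.8 and 163.4 in transgenic and 183.9, 182.2 and 178.4 in wild type seedlings. The genotypes did not overlap. A log2 change of -0.21 did not pass (limma adjusted p = 0.0753), and it passed with a pseudocount of 64 (adjusted p = 0.0301) and with a variance trend (adjusted p = 0.0486). KEU (AT1G12360), or KEULE, the SEC1 family protein that acts with the syntaxin of cell division, did not pass either (log2 change -0.10, limma adjusted p = 0.571).

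The genomic surroundings of the changed genes were read from the 3 measured named genes on each side of the 7 called genes and TPLATE, 48 genes in all. Of these 48, 2 rose and 3 fell, beside the background of 8.18% and 8.31% of all probe sets. On the log2(intensity + 16) scale, 2 were called with a change of at least 2-fold. AT1G17665, called lower with a ratio of the mean intensities of 0.5, did not reach this. Over all probe sets 1.17% rose and 0.479% fell this far. Unnamed probe sets and genes without a probe set lie between the 48 genes and were not used here.

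Near VPS2.2, AT5G44580, the second measured gene beyond it and 11 protein-coding genes away in the RefSeq order, rose more than VPS2.2 itself. It had means of 471 ± 58.6 in transgenic and 33.2 ± 4.31 in wild type seedlings (SD, n = 3 each), a log2 change of 3.31 (limma adjusted p = 4.23e-06, SE 0.11). The measured gene between them, AT5G44570, was dim, with means of 1.8 in transgenic and 4.1 in wild type seedlings, and did not pass. On the other side none (0) of the 3 measured genes passed in limma, and they did not share a direction. None (0) had an unadjusted p under 0.05, beside 30.5% of all probe sets. AT5G44530, AT5G44520 and AT5G44500 had log2 changes of 0.21, -0.01 and -0.21 (limma adjusted p = 0.182, 0.931 and 0.174).

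Near PRA1.A1, NDP1 (AT5G02130), 10 protein-coding genes away, fell by 1.42 on the log2 scale, with means of 22.9 ± 1.56 in transgenic and 88.2 ± 5.60 in wild type seedlings (SD, n = 3 each, limma adjusted p = 2.79e-05). It moved against PRA1.A1, which rose. The calls of AT5G44580 and NDP1 held under all 14 alternative fits. Beside PRA1.F1, AT1G17680 and AT1G17665 (dim, with a mean intensity of 15.9 over 6 arrays) had log2 fold changes of -0.31 and -0.48. AT1G17830 had 0.49 (limma adjusted p = 0.0169, 0.0158 and 0.0264 for the 3 genes). Those 3 calls were each lost when certain single arrays were left out (3, 4 and 4 of the 6), where the adjusted p reached 0.0609, 0.0623 and 0.0908. These arrays were transgenic replicates 2 and 3 and wild type replicate 3 for AT1G17680, the same and wild type replicate 2 for AT1G17665, and transgenic replicates 1 and 2 and wild type replicates 2 and 3 for AT1G17830, whose call also ended with a pseudocount of 1. None (0) of the 6 neighbours passed beside VPS20.1, VPS24.1, VPS46.2, PRA1.H or TPLATE in limma.

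**Figure D5:**
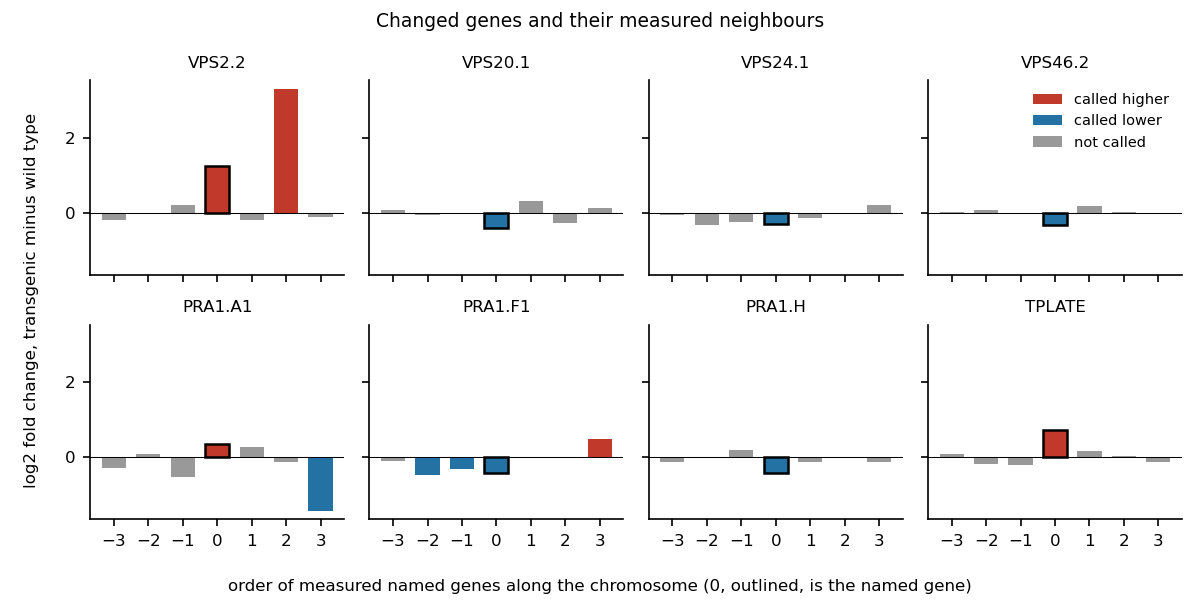
Log2 fold change (vertical axis, transgenic minus wild type) of each changed gene, outlined at position 0, and of the 3 measured named genes on each side in chromosome order (horizontal axis, not to physical distance). AT5G44580 at position 2 beside VPS2.2 reaches 3.31 and NDP1 at position 3 beside PRA1.A1 reaches -1.42.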

How the data were processed

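The deposited table holds 1 linear intensity per probe set and array. Per the labels' protocols, TRIzol-extracted total RNA was converted to biotin-labelled cRNA for Affymetrix arrays. How the probes were summarised and scaled is not given in the sources used here. Every array had the same mean of 100.0 after trimming 2% at each end, so no further normalization was applied. Of 22810 probe sets, 64 controls were left out. Genes came from the platform annotation (1 gene for 13513, several for 503, not listed for 8730) and the RefSeq table of TAIR10.1, which held 13436 of them (13286 genes). The table was used for names and gene order only.

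Intensities were taken as log2(intensity + 16) and the genotypes compared over 6 arrays by limma 3.58.1 (lmFit, eBayes; R 4.3.3), transgenic minus wild type, adjusted by Benjamini-Hochberg over 22746 probe sets at a threshold of 0.05. The test was checked on simulated arrays. The limma p-values set the genotype difference against the spread between these replicates, moderated over all probe sets. Whether they cover variation between transgenic lines is not known, since the number of lines is not given. Within-array differences of gene pairs were tested with a two-sided exact permutation test (scipy 1.17.1).

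All 29 genes are accounted for, and 24 had a mean intensity above 16. The genes and lists were chosen with earlier results of these data known. Named were all called genes, and the smallest p and highest mean of each role group. Also named were the 3 smallest p outside the threshold, called genes of the second list and neighbours changed at least 2-fold. The 2-fold limit was read on the log2(intensity + 16) scale. The remaining genes were added to account for every gene, and other neighbours after their values were seen. The second list was matched by symbol. Of its 17 matches, 2 were left out because their symbols name other proteins (CHC1, a chromatin protein, and ARL, an ARGOS-like growth regulator).

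Alternatives were quantile normalization, median centring, removal of dim probe sets, pseudocounts of 1 and 64, 2 other variance models, a replicate block and omission of each array in turn. Where an array was omitted, the same fit was used on 5 arrays.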

Additional observations from a re-analysis of the deposited data

How the results depend on the processing

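Of the 7 called genes, 4 (VPS2.2, PRA1.A1, PRA1.F1 and PRA1.H) kept their calls in all 14 alternative fits and 3 lost them in at least 1, and 0 changed sign. Of the 22 others, 2 passed in at least 1 fit. Quantile normalization, median centring, removal of dim probe sets and both variance models left 2 rises and 5 falls among the 29 genes. With a pseudocount of 1 the calls were 4, with 2 falls, and over all probe sets 2143 passed, 1184 higher and 959 lower. The cause was not tested. Among the 15 further trafficking genes 2 passed, 1 of them lower, with a pseudocount of 64 and with a variance trend. Without single arrays, 4 to 7 of the 29 genes passed, of which 2 to 5 fell, and 1 to 2 of the 15 passed, with 1 to 2 rises and 0 to 1 falls. Over all probe sets 2181 to 3433 passed, 1213 to 1741 higher and 968 to 1692 lower. These fits have fewer arrays. The labels number the replicates 1 to 3 in both genotypes and state no batch. The deviations of same-numbered arrays correlated at 0.19, 0.06 and 0.11. Arrays of numbers 1 and 3 correlated best with their own number, and those of number 2 did not. Whether same-numbered arrays were handled together cannot be settled from these values. With the replicate number as a block, 2 genes rose and 5 fell, and 3592 probe sets passed. Counting every probe set of a gene or leaving out those with a suffix changes nothing here, since each of the 29 genes has 1 probe set without a suffix. Dimness limits what can be read from the 5 genes with a mean intensity of 16 or less (SEC5B, ATSYP24, PRA1.G1, PRA1.G2 and VPS24.2).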
